A study of Homo sapiens with 8 samples.

Results

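The genes described here are 9 feedback inhibitors of the mitogen-activated protein (MAP) kinase cascades, DUSP1, DUSP4, DUSP5, DUSP6, DUSP10, SPRY2, SPRY4, SPRED1 and SPRED2. They were found by symbol among the 60230 genes of the count table. All 9 were among the 13404 genes that passed the filter on low counts. The list was chosen from symbols with earlier results of the comparisons with DMSO already known, and it leaves out 8 genes of the same families. The change of the members against DMSO is therefore given as a description. The calls of the fit over all genes are shown for them as counts beside the share of all genes called, with no p, and are not used as evidence.

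The dual-specificity phosphatases (DUSP), the Sprouty proteins (SPRY) and the Sprouty-related SPRED proteins restrain the MAP kinase cascades. In these cascades a growth factor receptor activates RAS, RAS activates a RAF kinase, RAF activates MEK, and MEK activates ERK, while parallel branches activate the stress kinases JNK and p38. The DUSP enzymes remove the activating phosphates from MAP kinases, whereas SPRY and SPRED proteins act upstream on RAS and RAF. Many of these genes are transcribed when ERK is active, so the cascade raises its own inhibitors, and their transcripts are widely read beside those of EGR1 and other immediate early genes. Transcript levels alone do not measure kinase activity, and no phosphorylation was analysed here.

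The cells were HepG2, an established human hepatocellular carcinoma line, in a derivative that overexpresses the drug-metabolizing enzyme CYP3A4 and is kept under blasticidin. All groups shared this line, so the DMSO controls carried the extra CYP3A4 too. Cells received 0.2% DMSO as the control, or compound 4, compound 5 or compound 6, each at its own IC50, and RNA was sequenced after 24 h of exposure in 2 replicates per group and 8 samples in all. The labels call the treatments metylcresol for compound 4, tetrabut for compound 5 and cyclohexil for compound 6, and give the replicates as day 1 and day 2. The compounds are plastic-related bisphenols. Compounds 4 and 6 are both pairs of methylphenol rings joined by a methylene bridge, and they differ in the group beside each hydroxyl, which is tert-butyl in compound 4 and cyclohexyl in compound 6. Compound 5 has tert-butyl in the place of the ring methyl groups of compound 4, and its bridge carries a methyl group. Since each compound was used at its own concentration, differences between compounds cannot be told apart from differences in concentration. Nothing in the labels says whether the replicates were separate cultures, so the tests measure the spread between these samples, which may be technical.

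The counts on genes summed to between 9472261 and 13308975 per sample. CPM below is the count scaled to a library total of 1000000. The total used was that of the genes kept by the filter, multiplied by a scaling factor (TMM) for each library. On this scale 3 counts, the smallest amount taken as detectable, corresponded to 0.234 to 0.313 CPM per library (counting error only). Mitochondrially encoded transcripts took between 4.91% and 6.21% of counts. All 8 hepatocyte markers were expressed, and their summed level was 34100 to 35600 CPM in DMSO, 27000 to 27400 CPM with compound 4, 28400 to 29100 CPM with compound 5 and 28000 to 33700 CPM with compound 6. Of 8 markers of other cells, PTPRC and COL1A2 were at 0 in every sample. Their summed level was 43.9 to 58.6 CPM in DMSO, 71.2 to 71.5 with compound 4, 44.4 to 47.5 with compound 5 and 61.8 to 68.2 with compound 6. The sums hide single genes. CD68 was called higher with compound 4 (log2 fold change 0.80, adjusted p = 0.0079) and ACTA2 lower with compound 5 (-1.20, adjusted p = 0.000837). Among hepatocyte markers, AFP was called lower with compounds 4 and 5 and APOA1 with all 3 compounds, while TTR was called higher with compound 4. CYP3A4 itself was higher with compound 5 (log2 fold change 0.97, SE 0.13, adjusted p = 0.000724), and its changes of 0.31 with compound 4 and -0.25 with compound 6 did not pass the cutoff of 0.05. The part of these shifts in the results was not tested. In bulk RNA, fewer cells that use a gene and less of its RNA per cell cannot be told apart.

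The upstream sequence of DUSP1 is shown because its level set compound 5 apart from the other compounds. The 250 bases before its start are at chr5:172771196-172771445 of GRCh38.p14 on the minus strand (RefSeq), directly upstream of the GENCODE gene. Capitals mark the cAMP response element TGACGTCA and its shorter core TGACG, with both strands searched and the core also counted inside the full element.
DUSP1: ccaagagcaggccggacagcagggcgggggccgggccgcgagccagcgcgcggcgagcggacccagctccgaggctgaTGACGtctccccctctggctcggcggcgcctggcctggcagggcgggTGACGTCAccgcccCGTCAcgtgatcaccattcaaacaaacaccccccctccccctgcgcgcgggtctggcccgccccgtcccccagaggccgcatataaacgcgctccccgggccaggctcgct
The full element lies at positions -125 to -118 counted from the start, and other copies of the core lie at positions -172 to -168 and -111 to -107. The full element occurred in 1.65% of the 35116 upstream windows of the same length in the reference, and the core in 21.2%. Upstream windows were searched for 7 of the members and numbered 11, since some genes have several starts. DUSP4 and DUSP5 were left out of the search, so whether they hold these letters was not tested. Of the 7, only DUSP1 held the full element, while SPRY2 and SPRY4 held the core, at -190 to -186 and -68 to -64. Windows were placed by RefSeq starts, and those of DUSP6, SPRY4 and SPRED1 lie inside the GENCODE gene. The AP-1 letters TGANTCA (in 6.57% of all windows), the ETS letters CCGGAAG (8.52%) and the CArG box (1.16%) had no match in the 11 windows, which says only that these letters are not there. These motifs were chosen after the values of the members had been seen, and a match is a description of letters, not of binding.

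Compared per length of the longest transcript, DUSP6 stood highest among the members in DMSO, with 29.3 CPM per kilobase. It was followed by DUSP1 at 23.1, SPRED2 at 18.8 and SPRY4 at 15.2 CPM per kilobase. SPRED1 (2.85) and SPRY2 (2.40) came next on this scale, and DUSP5 (0.587), DUSP10 (0.431) and DUSP4 (0.408) were near the bottom. Between the DMSO replicates, DUSP5 ranged from 0.481 to 0.692, DUSP4 from 0.267 to 0.549 and DUSP10 from 0.368 to 0.493 CPM per kilobase, so that the order among these low genes was not resolved. SPRED2 (16.9 to 20.8) and SPRY4 (14.0 to 16.3) did not overlap, nor did DUSP6 and DUSP1 (28.4 to 30.2 and 21.7 to 24.4), while SPRED1 (2.43 to 3.26) lay only just above SPRY2 (2.40 in both).

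Against DMSO, 4 members passed the cutoff as higher with compound 4 (DUSP4, DUSP5, DUSP6 and SPRY4), 5 with compound 5 (the same genes and DUSP1) and 3 with compound 6 (DUSP5, DUSP6 and SPRY4). No member was called lower with any compound, by edgeR or by DESeq2, and no member with a negative change had an unadjusted p under 0.05. Of all tested genes, edgeR called 6.5% as higher with compound 4 (5.42% as lower), 13.9% with compound 5 (14.2% as lower) and 2.8% with compound 6 (1.6% as lower). The median log2 fold change of the members was 0.79, 0.87 and 0.40 with compounds 4, 5 and 6, against 0.00, -0.03 and 0.00 over all genes. With compound 5, higher genes made up 49.3% of all calls, 53.1% with RLE scaling, 56.8% with DESeq2, 36.6% with upper-quartile scaling and 33.3% with library size only. Nothing is read from these counts, since the list was chosen with these comparisons known.

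**Figure D1:**
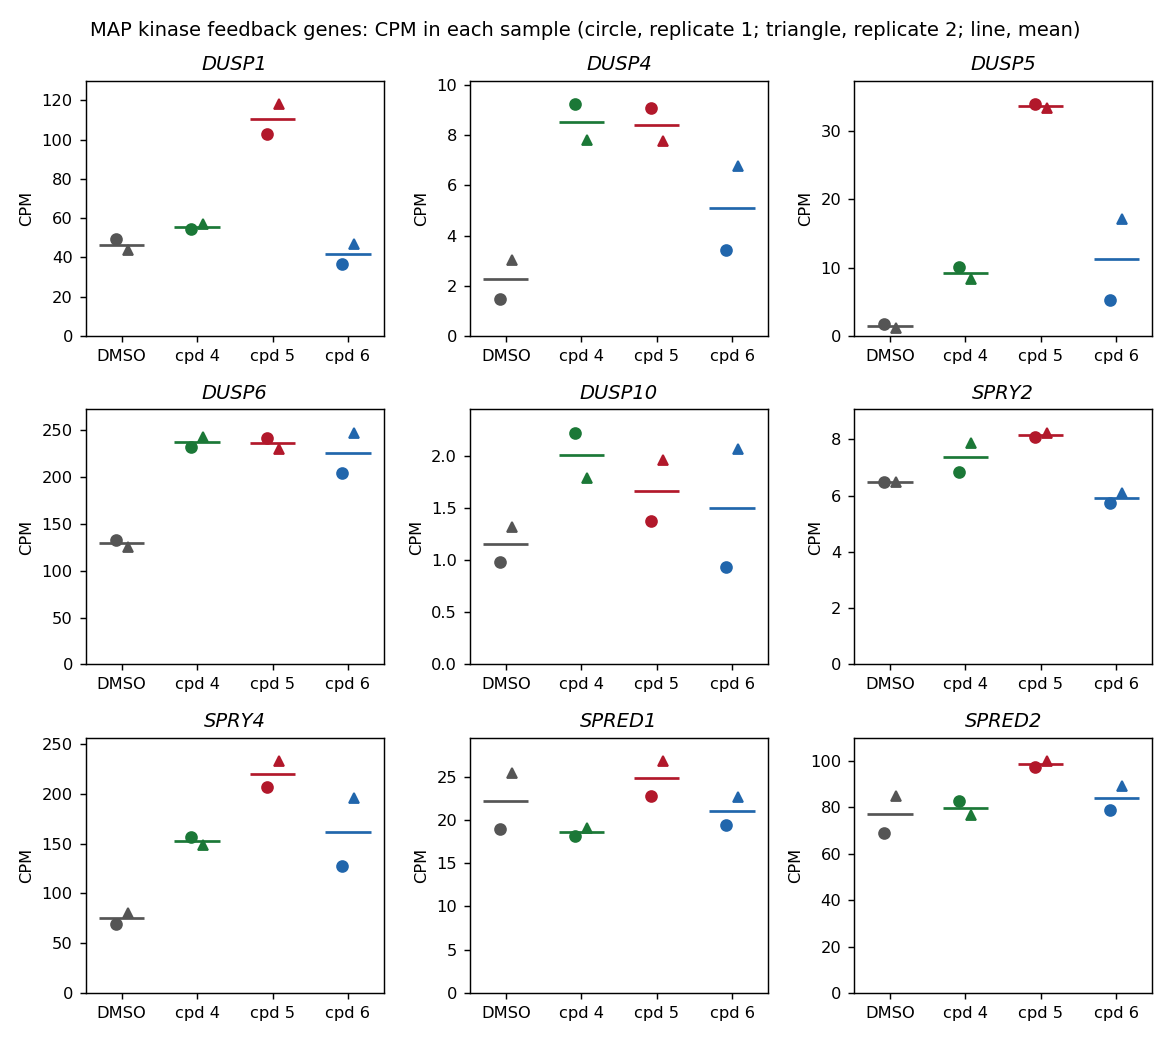
Level of each of the 9 members in CPM (y axis, linear and starting at 0) in the 8 samples, grouped by treatment on the x axis, with circles for replicate 1, triangles for replicate 2 and a line at the mean of the 2. DUSP5 and SPRY4 were above both DMSO samples in all 6 treated samples, the compound 5 samples of DUSP1 lay above its other 6, and SPRED1 overlapped DMSO with every compound.

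DUSP5 encodes a nuclear phosphatase that acts on ERK and anchors it there (ENSG00000138166, chromosome 10, 110497838 to 110511544 on the plus strand in GENCODE 29, GRCh38, 4 exons). Its level was 1.77 and 1.23 CPM under DMSO, 10.1 and 8.27 under compound 4, 33.9 and 33.4 under compound 5, and 5.32 and 17.1 under compound 6. All treated samples were above both DMSO samples, and those of compound 5 were above all others. The log2 fold change was 2.62 (standard error, SE, 0.51) with compound 4, 4.50 (SE 0.47) with compound 5 and 2.94 (SE 0.50) with compound 6. On the linear scale these were 6.14-fold, 22.6-fold and 7.70-fold. The DMSO values rest on 18 and 15 counts, so the size of the folds is set by few reads, although 370 and 426 counts were found with compound 5. The compound 6 replicates differed 3.21-fold, the widest gap of a member in any group, and without replicate 2 of compound 6 the log2 fold change was 1.84, as against 3.55 without replicate 1.

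DUSP6, the cytoplasmic phosphatase with high selectivity for ERK, had the highest level per length of the members under DMSO (ENSG00000139318, chromosome 12, 89347232 to 89353271 on the minus strand, 3 exons). It was measured at 133 and 125 CPM under DMSO, 232 and 242 under compound 4, 241 and 230 under compound 5, and 204 and 247 under compound 6. The treated samples lay above both DMSO samples and overlapped each other. The log2 fold changes were 0.87, 0.87 and 0.80 for compounds 4, 5 and 6 (SE 0.11 each). An antisense gene, AC024909.2, overlaps DUSP6, and the libraries were strand-specific.

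DUSP4 is another nuclear phosphatase of ERK and also acts on JNK (ENSG00000120875). Its levels were low, at 1.48 and 3.04 CPM under DMSO, 9.23 and 7.80 under compound 4, 9.07 and 7.77 under compound 5, and 3.44 and 6.75 under compound 6. Every treated sample was above both DMSO samples, but replicate 1 of compound 6 was close to replicate 2 of DMSO. The log2 fold change was 1.88 (SE 0.36) with compound 4, 1.86 (SE 0.36) with compound 5 and 1.17 (SE 0.38) with compound 6, where it did not pass the cutoff. Without replicate 1 of DMSO it was 1.48 with compound 4 and 1.46 with compound 5, and without replicate 2 of DMSO it was 2.52 with both. With compound 6 it passed without the filter on low counts and without replicate 1 of compound 6 (1.57), and it was 0.58 without replicate 2 of compound 6. The 2 DMSO libraries held 15 and 37 counts.

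DUSP1, an immediate early phosphatase that acts on p38 and JNK as well as ERK, showed another pattern (ENSG00000120129, chromosome 5, 172768090 to 172771195 on the minus strand, 4 exons). Its level was 49.3 and 43.8 CPM under DMSO, 54.4 and 56.9 under compound 4, 103 and 118 under compound 5, and 36.5 and 46.6 under compound 6. Both compound 5 samples were above all others, and compound 6 overlapped DMSO. The log2 fold change was 1.25 (SE 0.13) with compound 5, 0.26 (SE 0.14) with compound 4 and -0.16 (SE 0.14) with compound 6, and without replicate 1 of compound 6 the last value was 0.03. A noncoding gene, AC022217.3, overlaps DUSP1 on the other strand.

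DUSP10 encodes a phosphatase that prefers JNK and p38 over ERK (ENSG00000143507, chromosome 1, 221701424 to 221742176 on the minus strand, 4 exons). It was low throughout, with 0.985 and 1.32 CPM under DMSO, 2.22 and 1.79 under compound 4, 1.37 and 1.96 under compound 5, and 0.938 and 2.06 under compound 6. The samples of compounds 4 and 5 were above both DMSO samples, those of compound 6 on either side. The log2 fold changes of 0.79, 0.53 and 0.40 had SEs of 0.46, 0.47 and 0.48, and none passed the cutoff. The libraries held 9 to 26 counts of it.

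SPRY4 encodes a Sprouty protein that blocks the step from receptor to RAS and RAF (ENSG00000187678, chromosome 5, 142310427 to 142326455 on the minus strand, 3 exons). Its level was 69.2 and 80.5 CPM under DMSO, 157 and 149 under compound 4, 207 and 233 under compound 5, and 128 and 196 under compound 6. All treated samples were above DMSO, with compound 5 at the top and the compound 6 samples 1.53-fold apart. The log2 fold change was 1.03, 1.55 and 1.12 with compounds 4, 5 and 6 (SE 0.18 each). The antisense gene SPRY4-AS1 overlaps it.

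SPRY2, the close relative of SPRY4, did not pass the cutoff with any compound (ENSG00000136158, chromosome 13, 80335976 to 80340951 on the minus strand, 2 exons). It was measured at 6.50 and 6.49 CPM under DMSO, 6.84 and 7.88 under compound 4, 8.07 and 8.24 under compound 5, and 5.73 and 6.09 under compound 6. The samples of compounds 4 and 5 were above DMSO and those of compound 6 below it, by log2 fold changes of 0.18 (SE 0.18), 0.33 (SE 0.18) and -0.13 (SE 0.19).

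SPRED1 and SPRED2 hold RAS inactive together with neurofibromin, and SPRED1 did not pass the cutoff with any compound (ENSG00000166068, chromosome 15, 38252326 to 38357249 on the plus strand, 7 exons). Its level was 18.9 and 25.4 CPM under DMSO, 18.2 and 19.1 under compound 4, 22.8 and 26.8 under compound 5, and 19.4 and 22.7 under compound 6, and every treated group overlapped DMSO. SPRED2 (ENSG00000198369, chromosome 2, 65310851 to 65432637 on the minus strand, 6 exons) was measured at 69.2 and 85.1 CPM under DMSO, 83.0 and 76.9 under compound 4, 97.3 and 100 under compound 5, and 78.8 and 89.1 under compound 6. Of the 31-base words of SPRED1, 2.58% also occur in other genes. The gene AC012370.1 overlaps SPRED2 on the same strand, and its part in the counts was not tested. Both compound 5 samples of SPRED2 were above both DMSO samples, while those of compounds 4 and 6 overlapped them. With compound 5 the log2 fold change of 0.36 (SE 0.12) lay close to the cutoff. It did not pass in the edgeR fit, with the replicate block, with upper-quartile scaling or with library size only. It passed with DESeq2, with RLE scaling, without the filter on low counts, with at least 10 counts in every sample and with only the groups compared. It also passed in 5 of the 8 fits that left out a replicate, but not without replicate 1 of DMSO or without either replicate of compound 5.

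**Figure D2:**
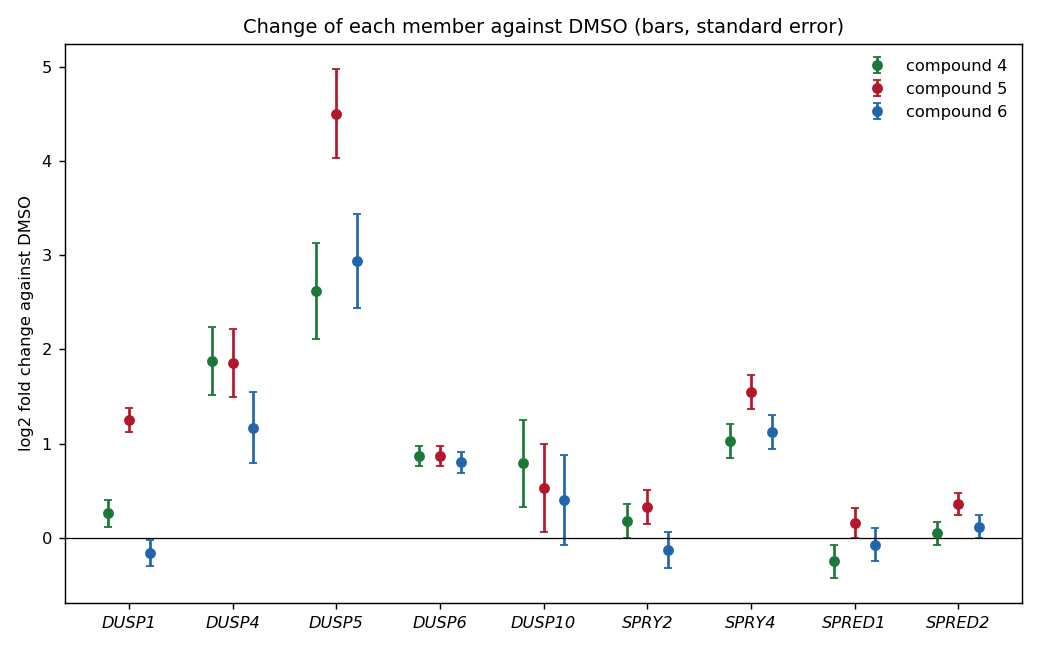
Log2 fold change of each member against DMSO (y axis) for compounds 4, 5 and 6, with bars for the SE of the edgeR fit. DUSP5 spans 2.62 to 4.50 and DUSP6 0.80 to 0.87, while SPRY2, SPRED1 and SPRED2 lie between -0.25 and 0.36.

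The replicates of compound 6 differed in the same way for every member. All 9 were higher in replicate 2 than in replicate 1, with a median log2 difference of 0.35, while 50.1% of all tested genes were higher in replicate 2 and their median difference was 0.00. In DMSO, compound 4 and compound 5 the numbers were 5, 4 and 6 of 9. Without replicate 2 of compound 6, only DUSP5 passed the cutoff against DMSO, while DUSP6 (log2 fold change 0.67) and SPRY4 (0.78) did not. Without replicate 1 of DMSO the number was also 1, and DUSP5 (3.21) and SPRY4 (1.01) did not pass. It was 0 without replicate 2 of DMSO. In that same fit the log2 fold changes with compound 6 were 2.69 for DUSP5, 0.76 for DUSP6 and 1.23 for SPRY4. With compound 4, leaving out replicate 1 of DMSO left 2 members called, and DUSP4 (log2 fold change 1.48) and SPRY4 (0.93) no longer passed. DUSP5 was lost with compound 4 without replicate 2 of DMSO (2.36). The calls over all genes moved too. Without replicate 2 of DMSO they went from 590 to 1 with compound 6 and from 1598 to 335 with compound 4, and without replicate 1 of compound 5 from 3763 to 1680 with compound 5.

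The question of which members respond differently to related structures was addressed by comparing the compounds with each other, in 3 pairs and with p-values adjusted over all 13404 genes of each pair. These comparisons use the same samples through which the list became known. Their p-values are therefore not independent support for the choice of members or for the differences of these members between compounds. Compound 5 was higher than compound 4 in 2 members, where edgeR called 6.91% of all genes higher and 7.04% lower. It was higher than compound 6 in the same 2, DUSP1 and DUSP5, where 4.76% of genes were called higher and 5.16% lower. No member was called lower with compound 5. Of all calls, the higher ones made up 49.5% against compound 4 (63.8% with DESeq2, 56.8% with RLE scaling, 33% with upper-quartile scaling and 31.3% with library size only) and 48% against compound 6 (60.6%, 54.3%, 28.7% and 28.4%).

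DUSP1 was higher with compound 5 than with compound 4 by 0.99 on the log2 scale (95% interval 0.69 to 1.28, adjusted p = 0.00489), and than with compound 6 by 1.41 (95% interval 1.11 to 1.71, adjusted p = 0.000582). In linear terms the compound 5 samples held 1.98 and 2.65 times the level of the other compounds. DUSP5 was higher with compound 5 than with compound 4 by 1.88 (95% interval 1.09 to 2.66, adjusted p = 0.0112) and than with compound 6 by 1.55 (95% interval 0.78 to 2.32, adjusted p = 0.0219). The latter missed the cutoff with DESeq2 (difference 1.60, adjusted p = 0.0676). The call of DUSP5 in both pairs was lost when either replicate of compound 5 was left out, with differences of 1.89 against compound 4 and of 1.55 and 1.56 against compound 6. Against compound 6 the DUSP5 difference was 0.97 without replicate 1 of compound 6 and 2.68 without replicate 2, and both passed the cutoff.

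SPRY4 lay between these patterns. Its level differed from compound 5 to compound 4 by 0.52 (95% interval 0.15 to 0.90, adjusted p = 0.064) and from compound 5 to compound 6 by 0.44 (95% interval 0.06 to 0.82, adjusted p = 0.126), with both compound 5 samples on top and neither difference past the cutoff. The first difference passed the cutoff with DESeq2 (0.55, adjusted p = 0.0143), and both passed without the filter on low counts (adjusted p = 0.000385 and 0.00548). The difference from compound 6 was 0.17 without replicate 1 of compound 6 and 0.79 without replicate 2, where it passed (adjusted p = 0.0153). For DUSP6, the difference of compound 5 from compound 4 was -0.01 (95% interval -0.25 to 0.24) and from compound 6 0.07 (95% interval -0.18 to 0.31), so a difference above 0.31 lies outside both intervals. For DUSP4, the intervals were wide, from -0.69 to 0.65 against compound 4 and from -0.01 to 1.40 against compound 6.

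The exchange of tert-butyl in compound 4 for cyclohexyl in compound 6 came with no called difference in any of the 9 members. Over all genes, edgeR called 0.0224% higher and 0.0224% lower in this pair, 3 genes each. DESeq2 called 72 genes, 63.9% of them higher, and also called 0 members. The difference of compound 4 from compound 6 was 0.42 for DUSP1 (95% interval 0.12 to 0.72, adjusted p = 0.4) and 0.71 for DUSP4 (95% interval 0.01 to 1.42, adjusted p = 0.506). The difference was 0.07 for DUSP6 (95% interval -0.17 to 0.32), -0.08 for SPRY4 (95% interval -0.46 to 0.29) and -0.07 for SPRED2 (95% interval -0.34 to 0.20). For DUSP5 the interval ran from -1.16 to 0.51 and for DUSP10 from -0.59 to 1.36, which does not show that the compounds act alike on them.

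**Figure D3:**
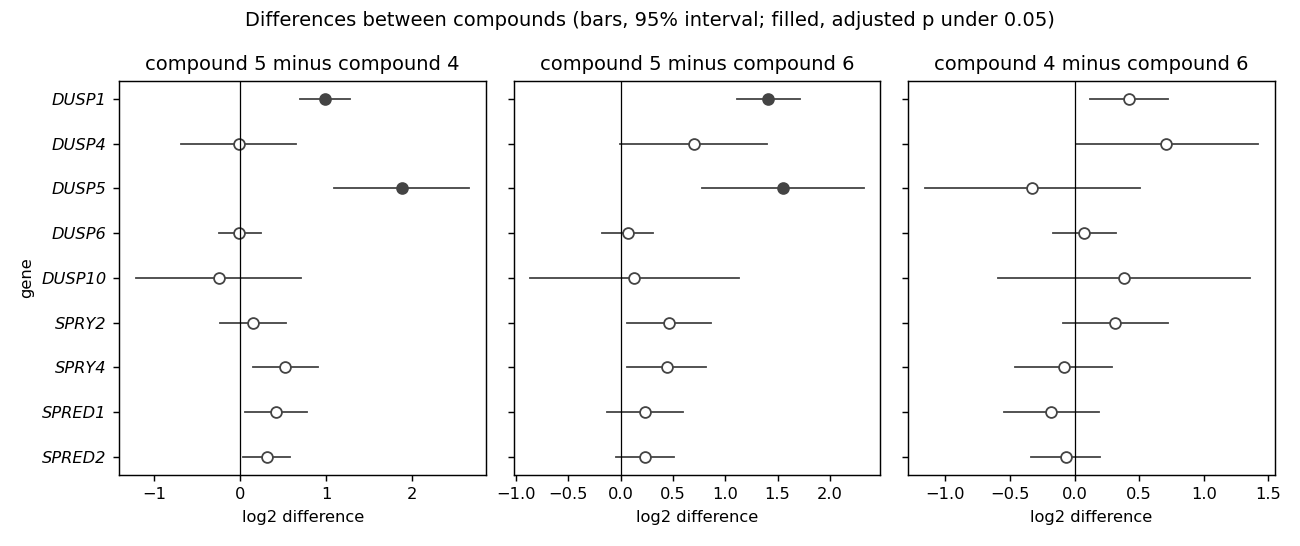
Log2 difference between compounds for each member (x axis, first named minus second named, each panel with its own range), with bars for the 95% interval and filled points for an edgeR adjusted p under 0.05. DUSP1 and DUSP5 are filled in both panels with compound 5, and no point is filled for compound 4 minus compound 6.

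Of the 8 genes of the same families outside the list, 5 passed the filter on low counts. DUSP2 was at 0 in every sample, SPRY3 was at 0.00 to 0.55 CPM and SPRED3 at 0.00 to 0.183 CPM. With compound 5, DUSP7, a cytoplasmic ERK phosphatase, was at 18.1 and 16.4 CPM under DMSO and rose to 24.5 and 23.5 CPM (log2 fold change 0.48, SE 0.14, adjusted p = 0.0266). DUSP8, which acts on JNK and p38, was at 6.01 and 7.07 CPM and rose to 10.5 and 15.1 CPM (log2 fold change 0.97, SE 0.22, adjusted p = 0.00846), and 6.89% of its 31-base words also occur in other genes, among them the pseudogenes DUSP8P5, DUSP8P4 and DUSP8P3.
DUSP9, the relative of DUSP6 with the highest level of all these genes per length (181 CPM per kilobase in DMSO), moved the other way. It fell with compound 5 to 261 and 345 CPM, where DMSO had 448 and 435 CPM (log2 fold change -0.54, SE 0.17, adjusted p = 0.0352). With compound 4 it was at 305 and 432 CPM, and the log2 fold change of -0.26 did not pass the cutoff (adjusted p = 0.358). With compound 6 it was at 318 and 288 CPM, and the log2 fold change of -0.54 did not pass the cutoff (adjusted p = 0.0956), but DESeq2 called it. DUSP16 and SPRY1 did not pass with any compound, at 69.0 to 106 CPM and 17.2 to 25.7 CPM. Over all genes, edgeR called 6.5%, 13.9% and 2.8% higher and 5.42%, 14.2% and 1.6% lower with compounds 4, 5 and 6. DESeq2 called 1476, 3105 and 764 of the 13404 genes in that order. With compounds 4 and 6, edgeR called 0 of the 5 family genes, and DESeq2 called 0 and 1. With compound 5, DESeq2 called 2 of them, 1 higher and 1 lower, so that at most 1 of the rises of DUSP7 and DUSP8 was called by both tools. All 3 edgeR calls with compound 5 were lost without replicate 1 of DMSO, and 1 was left without replicate 2 of DMSO or without either replicate of compound 5. Without replicate 1 of compound 4, 2 were called with compound 4.
Between compounds, in tests that share the compound 5 samples with those against DMSO, DUSP8 was higher with compound 5 than with compound 4 (difference 1.10, 95% interval 0.62 to 1.58, adjusted p = 0.0133) and than with compound 6 (0.89, 95% interval 0.41 to 1.37, adjusted p = 0.0303). DUSP7 was higher with compound 5 than with compound 6 (0.52, 95% interval 0.21 to 0.82, adjusted p = 0.0426).

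Around the members, 81 genes of the pathway were listed as ligands, receptors, adaptors and RAS regulators, kinases, other feedback genes and ERK target transcripts, and 68 of them were tested. Of these 68, 16 rose and 1 fell with compound 4, 27 rose and 3 fell with compound 5, and 11 rose and 1 fell with compound 6. Their median log2 fold change was 0.14, 0.36 and 0.20, against 0.00, -0.03 and 0.00 over all genes. These lists were written with earlier results known and some of their genes are feedback or target genes by definition, so the counts are descriptive. Over all genes the shares called higher were 6.5%, 13.9% and 2.8%, and those called lower were 5.42%, 14.2% and 1.6%. The 2 of 11 receptors that rose with compound 5 are near its share, and the 1 receptor and the 2 of 19 kinases that fell with it are no more than its share.

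Among the 9 tested ERK target transcripts, 3 rose with compound 4, 6 with compound 5 and 3 with compound 6. EGR1, the immediate early transcription factor, was at 3.05 and 3.12 CPM under DMSO, 15.9 and 11.2 under compound 4, 51.1 and 55.8 under compound 5, and 10.7 and 24.6 under compound 6. Its log2 fold change was 2.13 (SE 0.38, adjusted p = 0.00549), 4.11 (SE 0.35, adjusted p = 9.16e-05) and 2.53 (SE 0.37, adjusted p = 0.00671). The 6 targets that rose with compound 5 were EPHA2, PHLDA1, EGR1, FOSL1, IER3 and MYC. The targets ETV4, ETV5 and CCND1 did not pass with any compound, at 250 to 298 CPM, 75.4 to 105 CPM and 248 to 306 CPM, and were named after their values were seen.

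Of 7 tested ligands, 2 rose with compound 4, 4 with compound 5 and 3 with compound 6. The EGF receptor ligand EREG was at 22.0 and 19.3 CPM under DMSO and rose with all 3 compounds, by 1.49 (SE 0.28, adjusted p = 0.00761) with compound 4, 2.76 (SE 0.28, adjusted p = 0.000158) with compound 5 and 2.09 (SE 0.28, adjusted p = 0.00465) with compound 6. AREG, a ligand of the same receptor, rose by 3.48 with compound 5 (SE 0.44, adjusted p = 0.000464) and 2.09 with compound 6 (SE 0.48, adjusted p = 0.0377). With compound 4 its log2 fold change of 1.67 did not pass the cutoff (adjusted p = 0.0522). Its level was 1.67 and 1.56 CPM under DMSO and 16.1 and 20.1 CPM under compound 5.
Of 11 receptors, 2, 2 and 1 rose with compounds 4, 5 and 6, and 1 fell with compound 5. The receptor kinase AXL rose by 1.59, 1.30 and 1.66 in the order 4, 5 and 6 (adjusted p = 0.0182, 0.0242 and 0.0323). PDGFRB rose by 1.80 with compound 4 (adjusted p = 0.00864), from 2.66 and 1.64 CPM. Its changes of 0.76 with compound 5 and 1.12 with compound 6 did not pass (adjusted p = 0.153 and 0.112). Of 13 adaptors and RAS regulators, 2, 3 and 1 rose and 1 fell with compound 4, and the docking protein GAB2 changed most with each compound (1.20, 1.75 and 1.23, adjusted p = 0.0122, 0.000797 and 0.0255).

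Of 19 tested kinases, 4 rose with compound 4, 7 rose and 2 fell with compound 5, and 1 rose with compound 6. The p38 kinase MAPK13 rose under all 3 compounds, by 0.73, 0.54 and 0.59 in the order 4, 5 and 6 (adjusted p = 0.00415, 0.00827 and 0.0261). MAPK12, another p38 kinase, rose by 0.66 with compound 4 and 0.64 with compound 5 (adjusted p = 0.0181 and 0.0108). With compound 6 its log2 fold change of 0.51 did not pass the cutoff (adjusted p = 0.0824). The p38 transcripts did not all move one way. MAPK14, which encodes p38 alpha and had a mean of 87.0 CPM under DMSO, fell by 0.36 on the log2 scale under compound 5 (adjusted p = 0.0255) and had log2 fold changes of -0.25 and -0.20 under compounds 4 and 6, which did not pass. The other kinase that fell under compound 5 was MAPK3, which encodes ERK1, with a log2 fold change of -0.61 (adjusted p = 0.00709). Both were named after their values were seen. Of 9 other feedback genes, 3 rose with compound 4, 5 rose with compound 5, and 2 rose and 1 fell with compound 6. SH2B3, an adaptor that dampens cytokine receptor signals, rose by 0.58, 1.82 and 1.03 in that order (adjusted p = 0.0337, 7.52e-05 and 0.00746). SOCS3, an inhibitor of cytokine receptors, rose by 1.23 with compound 4 and 0.99 with compound 5 (adjusted p = 0.0338 and 0.0458). With compound 6 its log2 fold change of 1.18 did not pass the cutoff (adjusted p = 0.0689). Without replicate 1 or 2 of DMSO the number of pathway genes called was 7 or 2 with compound 4, 16 or 18 with compound 5, and 1 or 0 with compound 6. It was 2 with compound 6 without replicate 2 of compound 6, and 19 with compound 5 without replicate 2 of compound 5.

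**Figure D4:**
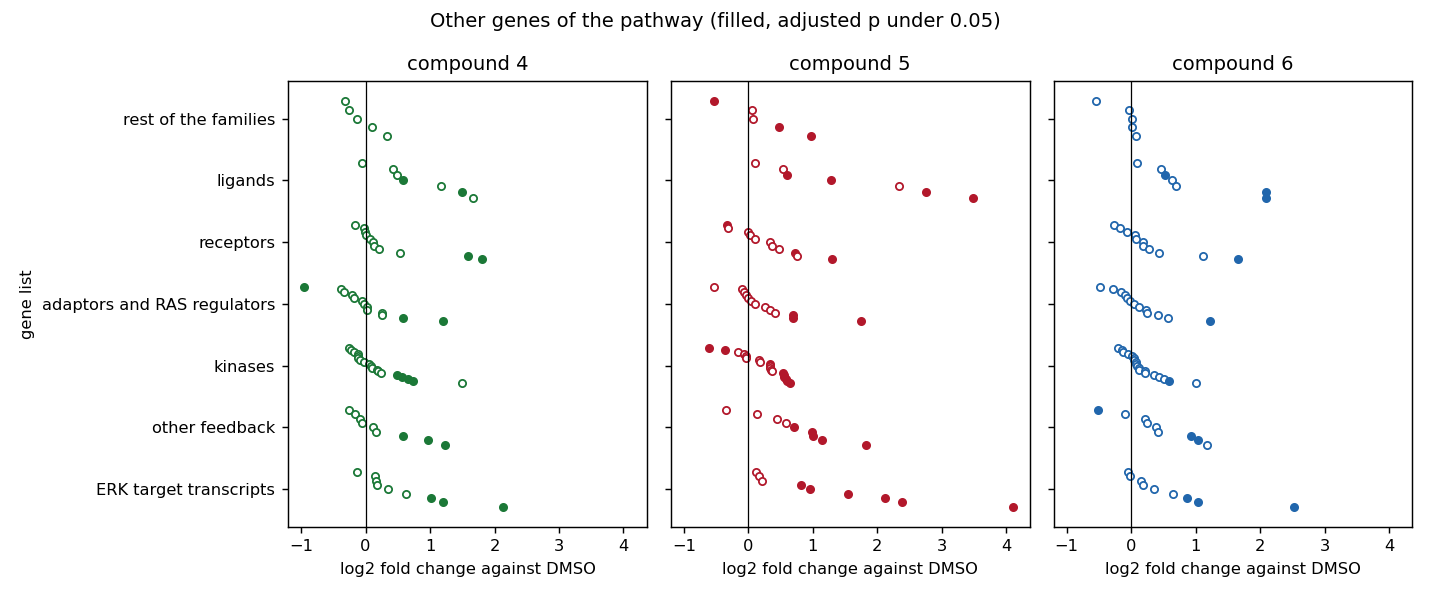
Log2 fold change against DMSO (x axis) of the tested genes in each list of the pathway and of the rest of the families (y axis) for compounds 4, 5 and 6, with filled points for an edgeR adjusted p under 0.05. In the ERK target list 3, 6 and 3 points are filled, with EGR1 farthest to the right at 2.13, 4.11 and 2.53.

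The genes with the pattern most like that of a member were found by Pearson's r of log2 CPM over the 8 samples, which fall into 4 treatment groups, so that any gene with the same group means scores high. For DUSP5 these were the amino acid transporter gene SLC7A5 (r = 0.997), the complement regulator CD55 (r = 0.996) and the Notch ligand JAG1 (r = 0.995), which rose from 155 and 162 CPM under DMSO to 1140 and 1160 under compound 5. For DUSP6 they were CYP2S1 (r = 0.995), TMC6 (r = 0.989) and the keratin gene KRT23 (r = 0.985). The closest to SPRY4 were the export pump gene ABCC2 (r = 0.990), FBLIM1 (r = 0.988) and MSANTD3 (r = 0.987). Among the members, DUSP5 and SPRY4 were most alike (r = 0.97), and DUSP1 was closer to SPRY2 (r = 0.89) than to DUSP6 (r = 0.42).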

How the data were processed

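Per the labels, RNA was sequenced from strand-specific libraries of 8 samples. The authors checked reads with FastQC 0.12.0, quantified transcripts with Salmon 1.5.0 (GENCODE transcriptome) and used tximeta for gene sums. What they deposited is a table of estimated counts (expected counts) in whole numbers, not normalized, for 60230 Ensembl identifiers, of which 41718 matched a symbol. By the labels, replicate 1 was merged from 2 parts, whose kind is not stated, for compound 4 and likewise for compound 5.

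The count tests ran under edgeR 4.0.16 and limma 3.58.1 in R 4.3.3. Genes were kept by filterByExpr, libraries were scaled by TMM (factors 0.958 to 1.039), and 1 quasi-likelihood fit held all 8 samples in 4 groups. A gene was called where its adjusted p (Benjamini-Hochberg over the 13404 tested genes) was under 0.05. Adjusted p-values in the text are those of edgeR unless DESeq2 is named, and standard errors and 95% intervals come from this fit. The rule for named genes took the 9 members, the 8 other family genes, for each pathway list and compound the called gene with the largest change at a mean of at least 1 CPM, and for DUSP5, DUSP6 and SPRY4 the 3 genes most like them at a mean of at least 5 CPM. The members and lists were chosen with earlier results of these data known.

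The alternatives were DESeq2 1.42.0, other scalings, other filters, the replicate block, fits of only the groups compared, a cutoff of 0.01 and leaving out each replicate. The labels number replicates by day, which was taken as the pairing. The correlation of deviations from the group mean between same-numbered samples was -0.083 to 0.16. Replicates differed beyond counting noise (chi-square per degree of freedom 5.51 to 17.16), so none was counted as a duplicate. On simulated data for compound 5 against DMSO (13404 genes, 200 of them given a log2 change of 1), 74.4% of changed genes were called and 8.38% of calls were false. Gene models came from GENCODE 29, and upstream windows from RefSeq. Protein sequences were not used here.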

Additional observations from a re-analysis of the deposited data

How the results depend on the processing

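Against DMSO, the numbers of called members moved by at most 1.5 times under every alternative other than leaving out a replicate. They were 4 with compound 4, 5 to 6 with compound 5 and 2 to 4 with compound 6. Compared with compound 6, compound 5 was higher in 1 member with DESeq2 and in 4 without the filter, where 2 were called in the edgeR fit. At a cutoff of 0.01 the number was 1, as it was for compound 5 against compound 4. At that cutoff the pathway genes called were 8, 18 and 4 with compounds 4, 5 and 6, and 1 of the other family genes was left with compound 5. Without the filter, 20 pathway genes were called with compound 6. DUSP9 was called with compound 6 with DESeq2, without the filter and with only the groups compared, giving 1 other family gene in place of 0. The cause was not tested.

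Leaving out 1 replicate at a time moved the members called to 2 to 4 with compound 4, 5 to 6 with compound 5, 0 to 4 with compound 6, 1 to 3 for compound 5 against each other compound, and 0 for compound 4 against compound 6. Pathway genes called ranged from 2 to 19, 16 to 41 and 0 to 16, and other family genes from 0 to 2, 0 to 3 and 0 to 1 with compounds 4, 5 and 6. A fit with a lone sample in a group assumes that it varies like the other groups. The log2 changes whose sign turned in such a fit were uncalled before and after. Against DMSO these ranged from -0.09 to 0.21 (SPRED2, compound 4), -0.02 to 0.28 (SPRED2, compound 6), -0.03 to 0.42 (SPRED1, compound 5), -0.27 to 0.16 (SPRED1, compound 6), -0.34 to 0.03 (DUSP1, compound 6) and -0.29 to 0.85 (DUSP10, compound 6). Between compounds 5 and 4 the ranges were -0.13 to 0.11 (DUSP4) and -0.03 to 0.03 (DUSP6), and between compounds 5 and 6 they were -0.07 to 0.23 (DUSP6) and -0.29 to 0.85 (DUSP10). Between compounds 4 and 6 they were -0.08 to 0.21 (DUSP6), -0.92 to 0.78 (DUSP5), -0.38 to 0.25 (SPRY4), -0.06 to 1.09 (DUSP10) and -0.18 to 0.02 (SPRED2).

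With the replicate block, the members called were again 4, 5 and 3 against DMSO, and 2, 2 and 0 between compounds, and the block moved no count of calls by over 1.5 times. Library-size scaling shifted the median of all genes by -0.105 with compound 5 against DMSO, and the log2 changes of DUSP1, DUSP4, DUSP5, DUSP6 and SPRY4 with compound 5 stayed within 1.14 to 1.28, 1.76 to 1.90, 4.39 to 4.52, 0.76 to 0.90 and 1.45 to 1.58 over all alternatives that kept every replicate. All genes called with compound 6 numbered 590, 92 at a cutoff of 0.01 and 1441 without the filter. Leaving out 1 replicate gave 1 to 1096 with compound 6, 335 to 1703 with compound 4 and 1680 to 4519 with compound 5. The lowest library of DUSP4, DUSP5 and DUSP10 held 15, 15 and 9 counts, and the part of depth in their errors was not tested.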
